A study of Mus musculus with 8 samples.

Results

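The response of mouse hMPDM macrophages to lipopolysaccharide (LPS) was described across all genes, from 1 library of unstimulated cells (0 h) and 1 library of cells given LPS for 3 h. These are 2 of the 8 libraries of the series, picked by their labels. Of 43346 genes in the table of read counts, 12461 had enough counts to be kept. The cell type is labelled hMPDM in both libraries, and the sources used here do not give what the abbreviation stands for, the strain, the age and sex of the animals or the dose of LPS. The comparison cells were bone marrow-derived macrophages (BMDM), with 2 unstimulated libraries and 2 libraries after 3 h of LPS. The macrophage-like line RAW 264.7, with 1 library per state, entered only the scaling and the fit. Polyadenylated RNA was measured in all of them.

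LPS is a glycolipid of the outer membrane of Gram-negative bacteria. In macrophages it is carried by CD14 to the receptor TLR4, which signals through the adaptor MyD88 to NF-kB and MAP kinases, and through TRIF to IRF3 and the gene for interferon beta. Secreted interferon then acts back on the cells through a complex that holds STAT2 and IRF9, which binds the interferon-stimulated response element (ISRE) of antiviral genes. NF-kB also turns on its own inhibitors, which limits the response in time.

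The hMPDM libraries held 15318338 counts at rest and 5510319 after LPS. Levels are given as CPM (a gene's counts per 1000000 counts of its library) scaled by TMM, a method that assumes most genes to be level between libraries. On that scale a count of 0 allows up to 0.180 CPM at rest and up to 0.654 CPM after LPS. The single hMPDM library of each state leaves its response without a replicate error, and no p-value is printed for it. A gene was counted as higher or lower where the ratio of the libraries was at least 4-fold (log2 ratio with a prior count of 2) and the higher library had at least 5 CPM. An interval in parentheses after a ratio is its exact 95% interval from the counts and covers counting error only. The lowest counts therefore carry the widest intervals, and those of the LPS library, the shallower of the pair, are the wider.

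The label was checked against markers. All 12 macrophage markers had at least 5 CPM, with a summed level of 41204 CPM at rest and 43694 CPM after LPS. This sum does not show single markers, of which the 4-fold rule called 2 higher and 1 lower. The CSF1 receptor gene Csf1r stood at 1553 and 1677 CPM. The lists of other cell types summed to 51.2 and 56.3 CPM (neutrophil), 2.64 and 14.2 (mast cell), 3.12 and 6.98 (T and NK cell) and 0.0601 and 0.872 (fibroblast), and the erythroid list had 0 CPM after LPS. They summed to 282 and 159 CPM for osteoclasts and 272 and 474 CPM for dendritic cells, of which the tetherin gene Bst2, an interferon-stimulated gene, gave 268 and 468 CPM. Progenitor markers summed to 76.0 and 66.3 CPM, with Cd34 at 29.4 and 19.6 CPM, Hoxb4 at 17.4 and 19.2 CPM and Kit at 2.46 and 1.74 CPM. The B cell list summed to 199 and 177 CPM, of which the immunoglobulin gene Ighm gave 198 and 176 CPM.

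The LPS library of hMPDM held reads of some genes that were present in BMDM and nearly absent from unstimulated hMPDM. Whether these reads came from BMDM or from hMPDM was not tested. For 16 genes with almost no reads in unstimulated hMPDM but present in BMDM in both states, the hMPDM level after LPS lay between 1.46% and 22.2% of the BMDM level, with a pooled share of 10.8%. The share at rest was 1.35%, which the choice of these genes fixes, since they were picked for at most 5% there. The part of these reads in the results was tested only as an arithmetic alternative, in which 10.8% of the BMDM LPS level was taken out of the hMPDM LPS library. Of the genes called below, 424 of 439 higher and 109 of 113 lower ones also passed with that share taken out. Only 2 of the 16 genes are among the higher ones, Plpp3 and Tceal8.

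After 3 h of LPS, hMPDM had 439 genes at least 4-fold higher, of 9735 with at least 5 CPM (4.51%), and 113 at least 4-fold lower (1.16%). At a fold of 2 the shares were 10.2% higher (995 genes) and 7.18% lower (699 genes). The same 4-fold rule between the unstimulated BMDM replicates called 1 gene (0.0104%), also at 2-fold, and between the LPS replicates 0 genes (0%), with 5 at 2-fold (0.0523%). In BMDM after LPS, 4.79% of genes were higher and 0.965% lower by this rule. With libraries scaled by total counts alone the hMPDM ratios dropped by a median of 0.38 on the log2 scale, with smaller drops at few counts. By that scaling 319 genes were higher and 224 lower, so that the higher genes made up 58.7% and not 79.5% of the calls.

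By the log2 ratio with the prior count, of the 439, 119 were at least 16-fold and 28 at least 64-fold higher, while 13 of the 113 were at least 8-fold and 1 was at least 16-fold lower. The prior count pulls ratios of few counts towards 1, and the LPS library is the shallower, so this limits the lower genes most. Without a prior count 18 lower genes were at least 8-fold and 4 at least 16-fold lower, the last with 1 to 4 counts after LPS. The higher genes had a median level of 10.6 CPM at rest and 124 CPM after LPS. They took 2.03% of all counts at rest (95% Clopper-Pearson interval 2.02% to 2.04%) and 15.1% after LPS (15.1% to 15.2%). The lower genes took 0.587% at rest (0.583% to 0.591%) and 0.0855% after LPS (0.0831% to 0.0880%). Of the higher genes, 410 were protein coding, and 71 stood under 1 CPM at rest. Of the lower ones, 35 had fewer than 10 counts after LPS.

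**Figure D1:**
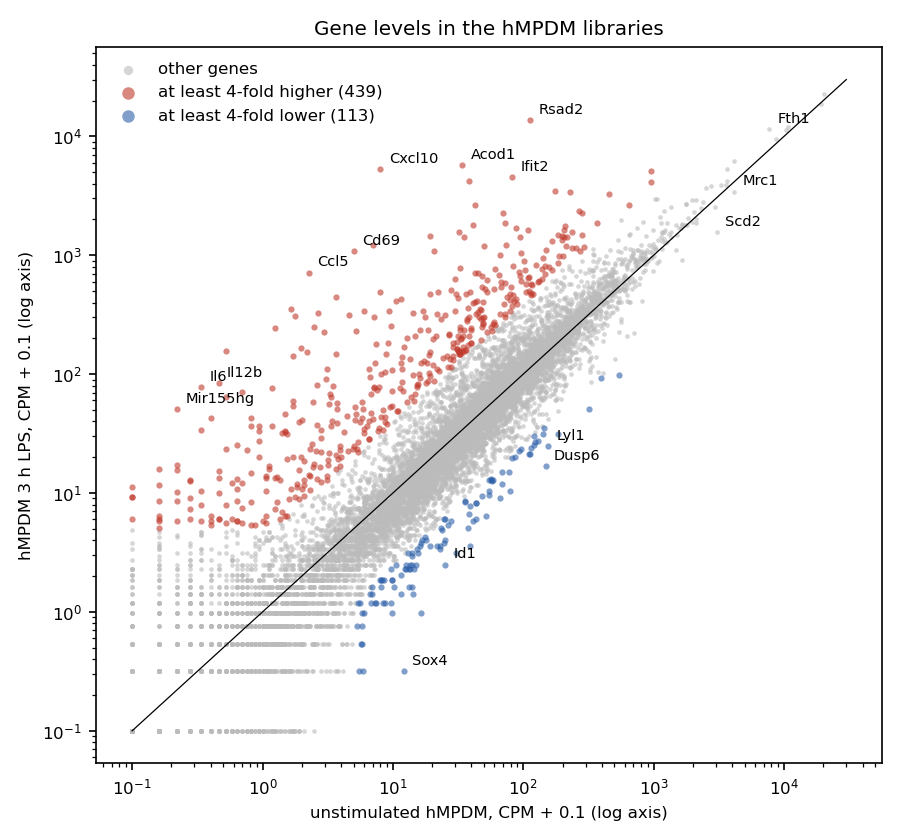
Level of each of the 12461 genes in the unstimulated hMPDM library (x axis) and in the library after 3 h of LPS (y axis), in CPM plus 0.1 on log axes, with the line of equal level. Red points are the 439 genes at least 4-fold higher and blue points the 113 at least 4-fold lower, and Cxcl10 lies farthest above the line while Fth1 lies close to it, at 7638 and 11454 CPM.

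The 10 genes with the largest gains in CPM were picked by that gain. Rsad2, an antiviral enzyme also called viperin (ENSMUSG00000020641.11, chromosome 12, 26442753 to 26456452, mm10), went from 113 to 13716 CPM. Its share of all counts was 0.0122% at rest (0.0117% to 0.0128%) and 1.14% after LPS (1.13% to 1.15%). Acod1, the enzyme that makes itaconate, went from 33.9 to 5762 CPM, Cxcl10 from 7.93 to 5302 and Ifit2 from 82.1 to 4539. The largest gains in CPM also included Rnf213 (947 to 5103), Cmpk2 (38.1 to 4206), the ferritin heavy chain gene Fth1 (7638 to 11454), the receptor gene Clec4e (175 to 3436), Parp14 (230 to 3389) and the autophagy adaptor gene Sqstm1 (955 to 4109). Together these 10 genes took 1.11% of counts at rest (1.11% to 1.12%) and 5.08% after LPS (5.06% to 5.10%). Their choice by gain fixes a rise. The 439 higher genes took 2.03% at rest and 15.1% after LPS. Per kilobase of exon, the level of Cxcl10 was 5.22 CPM at rest, rank 6947, and 3488 CPM after LPS, rank 7. The level of Rsad2 went from rank 2130 to rank 9 on the same per-length scale, and Fth1 was rank 1 in both libraries. After LPS, Cxcl10 and Rsad2 were thus among the 10 highest levels per length, beside lysosomal genes such as Lyz2, Ctsd and Ctsb.

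Promoter sequences of 10 genes past 4-fold are shown, picked because they hold motifs of the factors named above, so that they show the motifs and not how common these are. They are RefSeq sequences (GRCm38.p6, the mm10 build), 220 bases up to the base before the RefSeq start of the gene, written 5′ to 3′ on the gene's strand. In the first 5, genes of the inflammatory response and of its feedback, the capitals mark matches to the NF-kB consensus of 10 letters on either strand.
Cxcl10 (chr5:92348890-92349109, minus strand): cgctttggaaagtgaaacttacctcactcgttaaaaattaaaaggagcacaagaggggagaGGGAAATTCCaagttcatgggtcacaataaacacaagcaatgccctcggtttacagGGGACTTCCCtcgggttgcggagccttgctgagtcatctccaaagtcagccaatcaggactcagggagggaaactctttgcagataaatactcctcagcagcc
Cxcl2 (chr5:90903679-90903898, plus strand): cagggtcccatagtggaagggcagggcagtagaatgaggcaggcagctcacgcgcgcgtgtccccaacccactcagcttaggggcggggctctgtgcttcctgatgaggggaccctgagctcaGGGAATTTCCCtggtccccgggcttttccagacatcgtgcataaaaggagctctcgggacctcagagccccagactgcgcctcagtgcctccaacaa
Il6 (chr5:30012894-30013113, plus strand): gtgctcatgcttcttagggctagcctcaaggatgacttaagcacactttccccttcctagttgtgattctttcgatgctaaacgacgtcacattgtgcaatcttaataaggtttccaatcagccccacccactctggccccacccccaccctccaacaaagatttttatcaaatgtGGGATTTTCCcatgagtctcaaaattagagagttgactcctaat
Nfkbia (chr12:55492648-55492867, minus strand): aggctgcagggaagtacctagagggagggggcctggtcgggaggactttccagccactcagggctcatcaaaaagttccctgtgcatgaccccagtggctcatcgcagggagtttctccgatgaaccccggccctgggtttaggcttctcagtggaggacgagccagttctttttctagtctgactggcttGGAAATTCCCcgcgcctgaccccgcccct
Irf1 (chr11:53769794-53770013, plus strand): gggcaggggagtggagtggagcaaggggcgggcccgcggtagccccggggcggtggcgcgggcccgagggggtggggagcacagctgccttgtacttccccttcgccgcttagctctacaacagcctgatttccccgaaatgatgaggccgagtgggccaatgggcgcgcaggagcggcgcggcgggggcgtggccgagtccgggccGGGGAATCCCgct

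In the next 3, from interferon-stimulated genes that were much higher after LPS, the capitals mark the ISRE letters (GAAA, any 2 bases, GAAA) on either strand. The Isg15 promoter holds 3 overlapping matches.
Rsad2 (chr12:26456453-26456672, minus strand): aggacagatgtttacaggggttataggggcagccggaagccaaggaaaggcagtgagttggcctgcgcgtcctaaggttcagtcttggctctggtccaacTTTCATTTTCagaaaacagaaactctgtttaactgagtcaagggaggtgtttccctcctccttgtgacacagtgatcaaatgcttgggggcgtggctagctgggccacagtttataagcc
Isg15 (chr4:156200819-156201038, minus strand): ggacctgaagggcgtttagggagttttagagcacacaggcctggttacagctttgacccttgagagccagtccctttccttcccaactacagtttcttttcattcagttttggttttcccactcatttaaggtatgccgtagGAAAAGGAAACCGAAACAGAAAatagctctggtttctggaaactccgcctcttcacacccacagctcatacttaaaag
Igtp (chr11:58199336-58199555, plus strand): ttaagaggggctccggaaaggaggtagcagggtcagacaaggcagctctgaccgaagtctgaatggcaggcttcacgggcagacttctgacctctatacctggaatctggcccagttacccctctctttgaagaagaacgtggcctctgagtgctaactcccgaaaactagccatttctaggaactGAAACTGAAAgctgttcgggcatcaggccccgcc

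The last pair belongs to genes of DNA replication that were lower after LPS, and its capitals mark a match to the E2F letters TTTCCCGC, TTTGGCGC or TTTCGCGC on either strand.
Dtl (chr1:191575545-191575764, minus strand): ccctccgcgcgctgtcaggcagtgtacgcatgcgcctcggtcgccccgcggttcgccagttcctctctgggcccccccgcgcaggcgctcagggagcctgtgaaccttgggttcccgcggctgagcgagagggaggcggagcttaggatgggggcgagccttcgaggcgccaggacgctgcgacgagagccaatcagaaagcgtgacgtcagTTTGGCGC
E2f7 (chr10:110745219-110745438, plus strand): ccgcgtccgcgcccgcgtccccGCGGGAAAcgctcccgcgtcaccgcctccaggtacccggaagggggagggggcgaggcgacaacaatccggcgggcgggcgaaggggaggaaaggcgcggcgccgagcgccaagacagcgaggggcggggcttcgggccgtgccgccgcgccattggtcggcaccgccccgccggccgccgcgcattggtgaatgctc

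A RefSeq promoter of 300 bases, from 250 before to 50 after a start within 500 bases of the start in the count table, was found for 7102 of the 9735 genes with at least 5 CPM, for 295 of the 439 higher genes and for 81 of the 113 lower genes. The NF-kB letters were in 14.2% of the higher, 1.23% of the lower and 4.89% of all these promoters. The ISRE letters were in 14.2%, 3.70% and 3.28%, and the AP-1 letters TGANTCA in 11.5%, 1.23% and 4.41%. The motifs of inflammation and interferon signalling were thus more frequent in the higher genes than in all genes, while for the E2F letters the order was turned. E2F letters were in 1.69% of the higher, 14.8% of the lower and 4.10% of all promoters. The letters TATAAA, read on the gene's strand, were in 14.2%, 6.17% and 4.01%, and the CRE letters TGACGTCA in 2.03%, 3.70% and 3.63%. By list, the ISRE letters were in 16 of 32 promoters of antiviral effectors and 6 of 7 of GBP and IRG GTPases, the NF-kB letters in 4 of 9 of CXC chemokines, and the E2F letters in 11 of 31 of G1/S genes. A match is a run of letters and not evidence that a factor binds there.

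Sensing and signalling came first in the pathway, and here the receptor gene stayed under 2-fold while a minority of its signalling genes passed 4-fold. Tlr4 had 148 CPM without and 114 CPM with LPS (log2 ratio -0.38). Cd14, the co-receptor that hands LPS to TLR4, went from 166 to 1309 CPM (2.98), and Ly96, the MD-2 subunit of the receptor, from 11.9 to 15.0 CPM (0.33). Of 20 genes of TLR4 sensing and its adaptors, all with at least 5 CPM, 5 were 4-fold higher and 0 lower, with a median log2 ratio of 0.46 beside -0.01 over all genes. The higher ones were Cd14, the ubiquitin ligase gene Peli1 (42.8 to 400 CPM), the kinase genes Irak2 (36.9 to 278) and Map3k8 (14.1 to 98.1), and the adaptor gene Myd88 (70.8 to 386). Ticam1 (31.2 to 39.0 CPM), which encodes TRIF, stayed under 2-fold. The kinase genes Irak4 (35.7 to 29.7) and Irak1 (123 to 111) had ratios under 1.

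Other Toll-like receptors went in both directions. Tlr2, which senses lipoproteins, went from 109 to 1640 CPM (3.91). Tlr3, a sensor of double-stranded RNA, went from 18.1 to 123 CPM (2.75), and Tlr1, the partner of TLR2, from 47.3 to 193 CPM (2.03). Tlr13, a sensor of bacterial ribosomal RNA in mice, stood at 411 and 189 CPM (-1.12), and the flagellin receptor gene Tlr5 at 10.0 and 2.62 CPM (-1.87). Of the 9 receptors in this list 3 were 4-fold higher and 0 lower, and these last 2 were at least 2-fold lower.

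NF-kB genes showed the inhibitors and the inducible subunits higher, and the constitutive kinase little different. Of 16 genes of NF-kB subunits, IkB proteins and their kinases, 10 were 4-fold higher and 0 lower (median 2.19). Nfkbiz, an atypical IkB that co-activates secondary response genes, went from 9.31 to 340 CPM (5.16). Nfkbia, the inhibitor IkB alpha (ENSMUSG00000021025.7, chromosome 12, 55489411 to 55492647, mm10), went from 48.2 to 662 CPM, a ratio of 13.7 (12.7 to 14.9). The other IkB genes Nfkbie (14.8 to 207 CPM), Nfkbib (35.5 to 159) and Bcl3 (14.3 to 59.1) were also past 4-fold. The subunit genes Nfkb2 (67.5 to 536 CPM), Relb (28.7 to 182), Nfkb1 (110 to 655) and Rel (22.5 to 106) were past it, and Rela, the p65 subunit, was not (77.1 to 161 CPM, log2 ratio 1.06). Ikbke, an inducible kinase of IRF3, went from 101 to 888 CPM. The genes of the constitutive IkB kinase, Ikbkb (0.56), Chuk (0.13) and Ikbkg (0.03), had log2 ratios under 1.

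Of 25 feedback regulators with at least 5 CPM, 12 were 4-fold higher and 1 was lower. The adaptor gene Traf1 went from 1.86 to 164 CPM (6.33), and the cytokine signalling inhibitors Socs3 from 5.95 to 339 CPM (5.79) and Socs1 from 1.92 to 40.8 CPM (4.28). Tnfaip3, the ubiquitin-editing enzyme A20, went from 44.8 to 713 CPM (3.99). Zfp36, which destabilizes cytokine mRNA, went from 52.8 to 488 CPM (3.20), and the RNase genes Zc3h12c (21.4 to 208) and Zc3h12a (18.5 to 86.6) were also higher. The relatives of Zfp36 stood the other way, with Zfp36l2 at 133 and 46.4 CPM (-1.51) and Zfp36l1 at 49.3 and 22.7 CPM (-1.11). The MAP kinase phosphatases were split as well. Dusp2 went from 6.97 to 41.6 CPM and Dusp1 from 10.5 to 19.8 CPM. Dusp6, which acts on ERK (ENSMUSG00000019960.7, chromosome 10, 99263231 to 99267488, mm10), stood at 148 and 16.8 CPM, a ratio of 0.113 (0.0891 to 0.142).

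Secreted factors included the gene with the highest ratio of all. Cxcl10, a chemokine for activated T cells (ENSMUSG00000034855.9, chromosome 5, 92346638 to 92348889, mm10), had 132 counts at rest and 24313 after LPS, a ratio of 669 (564 to 800). Of 9 CXC chemokine genes with at least 5 CPM 8 were 4-fold higher, and of 10 CC chemokine genes 9. The neutrophil chemokine genes Cxcl2 (2.58 to 325 CPM), Cxcl3 (0.240 to 33.8) and Cxcl1 (0.120 to 17.0) had log2 ratios of 6.88, 6.32 and 5.82. Cxcl9 and Cxcl11, which share the receptor of Cxcl10, reached only 8.50 and 20.1 CPM. The exceptions among the chemokines were Pf4 (482 to 655 CPM) and Ccl6 (388 to 440 CPM), which were high in both libraries.

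Among CC chemokines, Ccl5 went from 2.16 to 712 CPM (8.25), Ccl4 from 41.3 to 1791 CPM (5.43) and Ccl3 from 87.2 to 1689 CPM (4.27). The monocyte chemokines Ccl2 (368 to 1866 CPM) and Ccl7 (237 to 1563) and the gene Ccl9 (649 to 2650) started high, so that a large gain in CPM came with a small ratio. Both chemokine lists took 0.253% of counts at rest (0.250% to 0.256%) and 1.47% after LPS (1.46% to 1.48%).

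Of 15 interleukin and growth factor genes with at least 5 CPM, 8 were 4-fold higher and 0 lower. Il6, a pyrogenic cytokine gene, had 4 counts at rest and 357 after LPS, a ratio of 324 (125 to 1196). Il1b went from 1.68 to 309 CPM and Il1a from 1.62 to 141 CPM. Il27 (1.62 to 53.6 CPM) and Il15 (16.0 to 237 CPM), which act on T and NK cells, and the interleukin 1 antagonist gene Il1rn (32.4 to 236 CPM) were also higher. Il12b, a subunit of interleukins 12 and 23, went from 0.360 to 83.3 CPM (7.26), and with the BMDM share taken out the log2 ratio was 5.39. Csf1, the growth factor of macrophages, went from 290 to 1166 CPM. Il10 stayed low, at 0.661 and 2.18 CPM, and Ifnb1, with 0 counts at rest, reached 3.71 CPM. The angiogenic factor gene Vegfa (55.4 to 33.8 CPM) had a ratio under 1.

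The TNF family list had 6 ligands with at least 5 CPM, of which 3 were 4-fold higher. Tnf went from 32.1 to 1570 CPM (5.61), the death ligand gene Tnfsf10 (TRAIL) from 2.88 to 224 CPM (6.19) and Tnfsf15 from 0.420 to 63.7 CPM (6.72). Tnfsf9 (16.6 to 65.4 CPM) just missed 4-fold with a log2 ratio of 1.97. Tnfsf12 stood at 47.8 and 38.6 CPM.

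Receptors were mixed. Of 24 chemoattractant receptors with at least 5 CPM, 5 were 4-fold higher and 3 lower. Ccrl2, an atypical chemokine receptor gene, went from 7.87 to 495 CPM (5.94) and Gpr84, a receptor for medium-chain fatty acids, from 16.8 to 336 CPM (4.31). The formyl peptide receptor genes Fpr1 (0.360 to 15.3 CPM) and Fpr2 (0.360 to 13.3 CPM) were near absent at rest. The receptors of lysophosphatidic acid were split, with Lpar1 at 0.541 and 25.3 CPM, Lpar6 at 95.7 and 23.3 CPM and Lpar5 at 14.1 and 1.31 CPM. Cxcr4, the receptor of the bone marrow chemokine CXCL12, stood at 68.5 and 11.8 CPM (-2.52). The receptors S1pr1 (123 to 32.7 CPM) and Gpr183 (20.1 to 5.02 CPM), which guide cells within lymphoid tissue, came close to 4-fold lower.

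Of 30 cytokine receptors with at least 5 CPM, 5 were 4-fold higher and 0 lower. They were the costimulatory receptor gene Cd40 (2.40 to 250 CPM), Il15ra (6.61 to 94.2), the death receptor gene Fas (7.75 to 78.5), Tnfrsf1b (281 to 2264), which is a TNF receptor, and Il13ra1 (8.89 to 37.9). Il15 and the gene of the receptor that presents it were therefore both higher. The interferon receptor genes Ifnar1 (181 to 314 CPM) and Ifnar2 (86.6 to 95.7) stayed under 2-fold. Il6ra (80.0 to 32.5 CPM, -1.29), the interleukin 6 receptor, was under 4-fold.

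**Figure D2:**
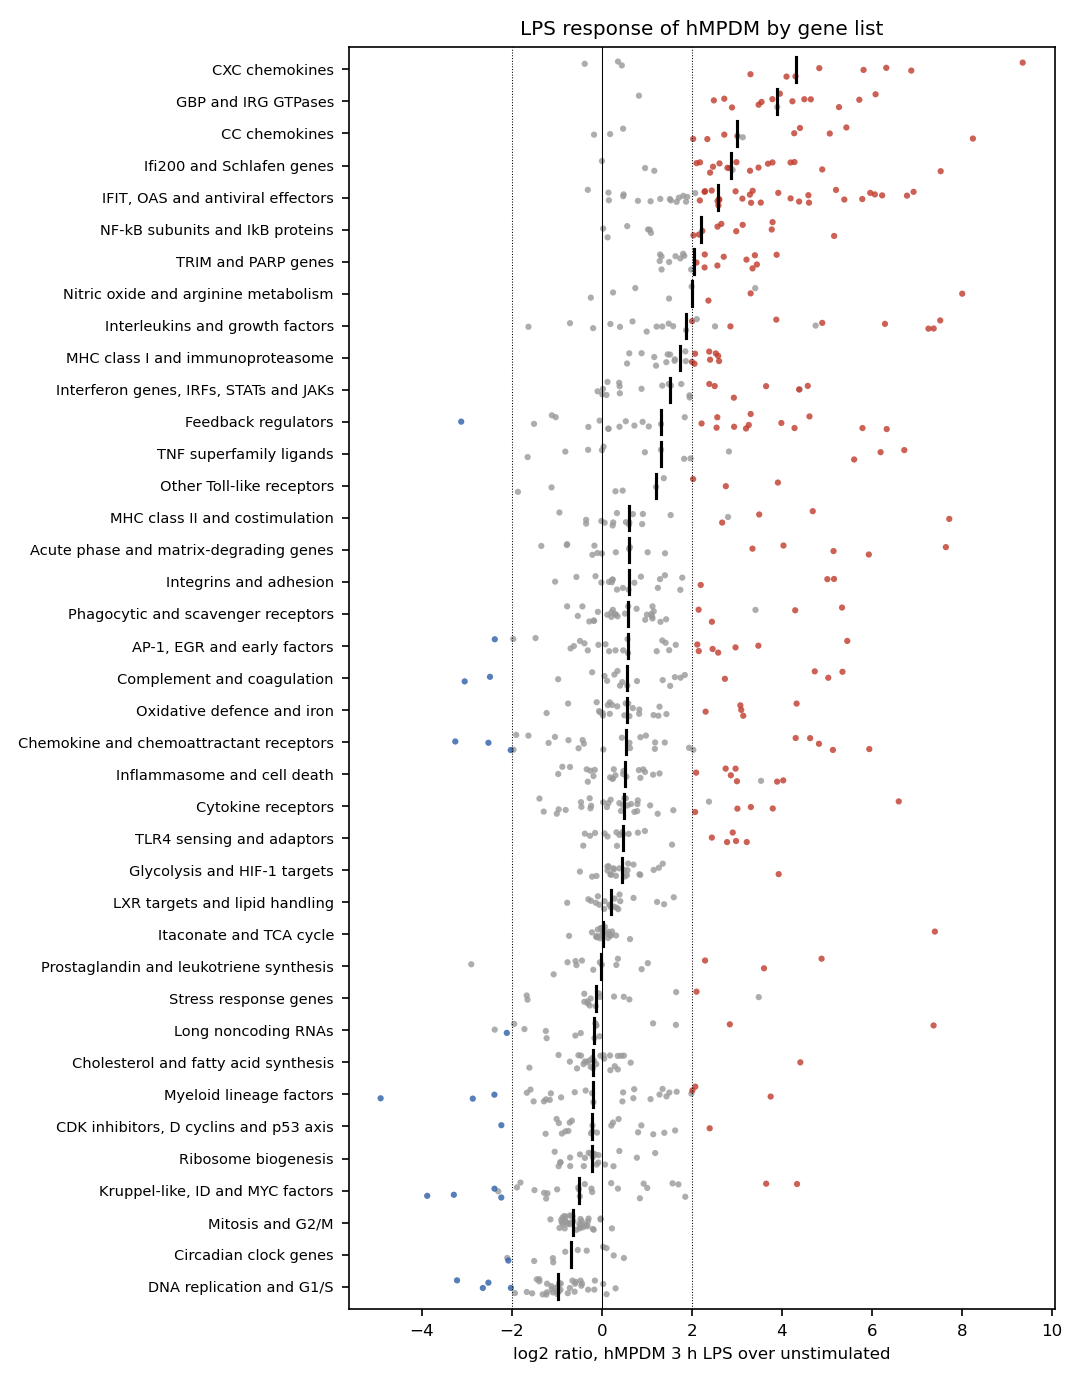
Log2 ratio of LPS over unstimulated hMPDM for the kept members of 39 gene lists, ordered by list median (black bar), with dotted lines at 4-fold. Red points are genes called at least 4-fold higher and blue points at least 4-fold lower, and grey points past a dotted line have under 5 CPM in both libraries. Medians run from 4.30 for CXC chemokines to -0.98 for DNA replication and G1/S.

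Among interferon-stimulated genes, the antiviral list held the most genes past 4-fold of any list, and with 44 genes it was also the longest. Of the 439 higher genes, 207 were in any list, the marker lists included. Of 42 antiviral effectors with at least 5 CPM, 27 were 4-fold higher and 0 lower (median 2.59), with the same 27 and 0 when the BMDM share was taken out. The list summed to 3467 CPM at rest and 39630 CPM after LPS. Cmpk2, a nucleotide kinase gene next to Rsad2, had a log2 ratio of 6.78, and the GTPase genes Mx1 (19.2 to 1454 CPM) and Mx2 (7.09 to 304 CPM) had 6.23 and 5.39. Mx, Ifit, Oas and H2-Q genes have close paralogs, so reads shared between copies could move these values. The RNA sensors Ifih1 (50.8 to 520 CPM) and Ddx58 (109 to 648 CPM) and the DNA sensor Zbp1 (13.5 to 134 CPM) were also higher. Members with high resting levels differed little, such as Ifitm2 (295 to 412 CPM) and Bst2 (268 to 468 CPM).

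The guanylate-binding proteins and immunity-related GTPases, which attack vacuoles of intracellular pathogens, were almost all higher. Of 14 with at least 5 CPM, 13 were 4-fold higher (median 3.90), the exception being Gbp8 (7.81 to 14.0 CPM). Gbp2 went from 20.4 to 1087 CPM, Gbp2b from 6.97 to 1210 CPM, Irgm1 from 150 to 1110 CPM and Iigp1 from 2.10 to 155 CPM. Of 18 Ifi200 and Schlafen genes, 16 were 4-fold higher, with Ifi205 at 1.14 and 245 CPM and Slfn5 at 186 and 1475 CPM. The DNA sensor gene Aim2 of the same group stood at 79.0 and 154 CPM (0.96). All 20 TRIM and PARP genes were at least 2-fold higher and 10 of them 4-fold, led by Parp14 (3.88).

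Some of the higher genes were neighbours. Among the kept genes in genome order, 64 of the 439 higher genes lay in 17 runs of at least 3 adjacent higher genes. The run with the most genes held 8 Ifi200 genes over 312 kb of chromosome 1 (173630917 to 173942672, mm10), with log2 ratios from 2.18 for Ifi207 to 4.90 for Ifi209. A run of 5 on chromosome 14 held Phf11a, Phf11b, Phf11c and Phf11d with Setdb2. Runs of 4 held Ifit2, Ifit3, Ifit1bl1 and Ifit3b, 4 Gbp genes on chromosome 3, Gbp9, Gbp4 and Gbp11 with Gm43302 on chromosome 5, H2-Q4 to H2-Q7, Slfn1 to Slfn4, and Ccl2, Ccl7, Ccl12 and Ccl8. Cxcl9, Cxcl10 and Cxcl11 made a run of 3 over 44.2 kb, and Cxcl1, Cxcl2 and Cxcl3 another. Most runs are families of paralogs, where reads shared between copies could also move the values, and another held Parp14, Dtx3l and Parp9. Genes that were not kept are passed over, so Nt5c3, Ppm1k and Herc6 made a run over 783 kb. The number of runs to be expected from gene order alone was not worked out.

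Of 20 interferon, IRF, STAT and JAK genes with at least 5 CPM, 6 were 4-fold higher and 0 lower. Irf1, an early activator, went from 50.1 to 1198 CPM (4.57), Irf7, which amplifies interferon production, from 60.4 to 760 CPM (3.65), and Batf2 from 1.38 to 32.5 CPM. Stat2 (187 to 979 CPM), Jak2 (46.4 to 356) and Batf (16.0 to 92.0) were past 4-fold. Irf3 (36.9 to 37.5 CPM), the factor that TRIF activates by phosphorylation, and Irf8 (88.4 to 94.9 CPM) were nearly level.

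Other transcription factors pointed both ways. Of 21 early-response factors with at least 5 CPM, 7 were 4-fold higher and 1 lower. Gadd45b, a stress sensor gene, went from 5.11 to 232 CPM (5.45), Junb from 39.4 to 237 CPM (2.58) and Atf3, a repressor of cytokine genes, from 139 to 764 CPM (2.46). Jun (157 to 126 CPM) and Fos (17.4 to 25.9 CPM) stayed under 2-fold, and Fosl2 stood at 54.2 and 10.2 CPM (-2.38). The AP-1 genes that were high at 3 h were thus not Fos and Jun.

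Of 25 Kruppel-like, ID and MYC family genes with at least 5 CPM, 2 were 4-fold higher and 4 lower. Mxd1, a MYC antagonist gene, went from 18.4 to 233 CPM (3.65) and Mycl, which had 0.180 CPM at rest, was the other. Myc itself stood at 32.1 and 13.1 CPM (-1.28), Tfap4, a target of MYC, at 5.77 and 0.218 CPM from 96 and 1 counts, and Bhlhe41 at 130 and 27.5 CPM. Id1, a dominant inhibitor of basic helix-loop-helix factors, stood at 25.1 and 2.40 CPM (-3.29) and Smad6, an inhibitor of BMP signalling, at 13.3 and 2.40 CPM (-2.39). Both are known targets of BMP signalling, and Id3, another target, stood at 63.7 and 31.8 CPM.

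The lineage factors of myeloid cells included the gene with the lowest ratio of all and some that were higher. Of 24 with at least 5 CPM, 3 were 4-fold higher and 3 lower. Sox4 had 200 counts at rest and 1 after LPS, a ratio of 0.0182 (0.000457 to 0.102). Cebpa, which sets myeloid fate, stood at 66.6 and 8.94 CPM, a ratio of 0.134 (0.0959 to 0.183). Maf, a factor of macrophage identity, stood at 701 and 220 CPM (-1.67). Cebpb (18.7 to 45.8 CPM) and Cebpd (19.6 to 55.8 CPM), the inflammatory C/EBP factors, were at least 2-fold higher, and Spi1, which encodes PU.1, went from 224 to 570 CPM (1.35). Prdm1, a repressor gene (3.60 to 50.8 CPM), Nr1h3, the LXR alpha gene (3.84 to 16.8 CPM), and Etv3 (115 to 463 CPM) were past 4-fold.

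**Figure D3:**
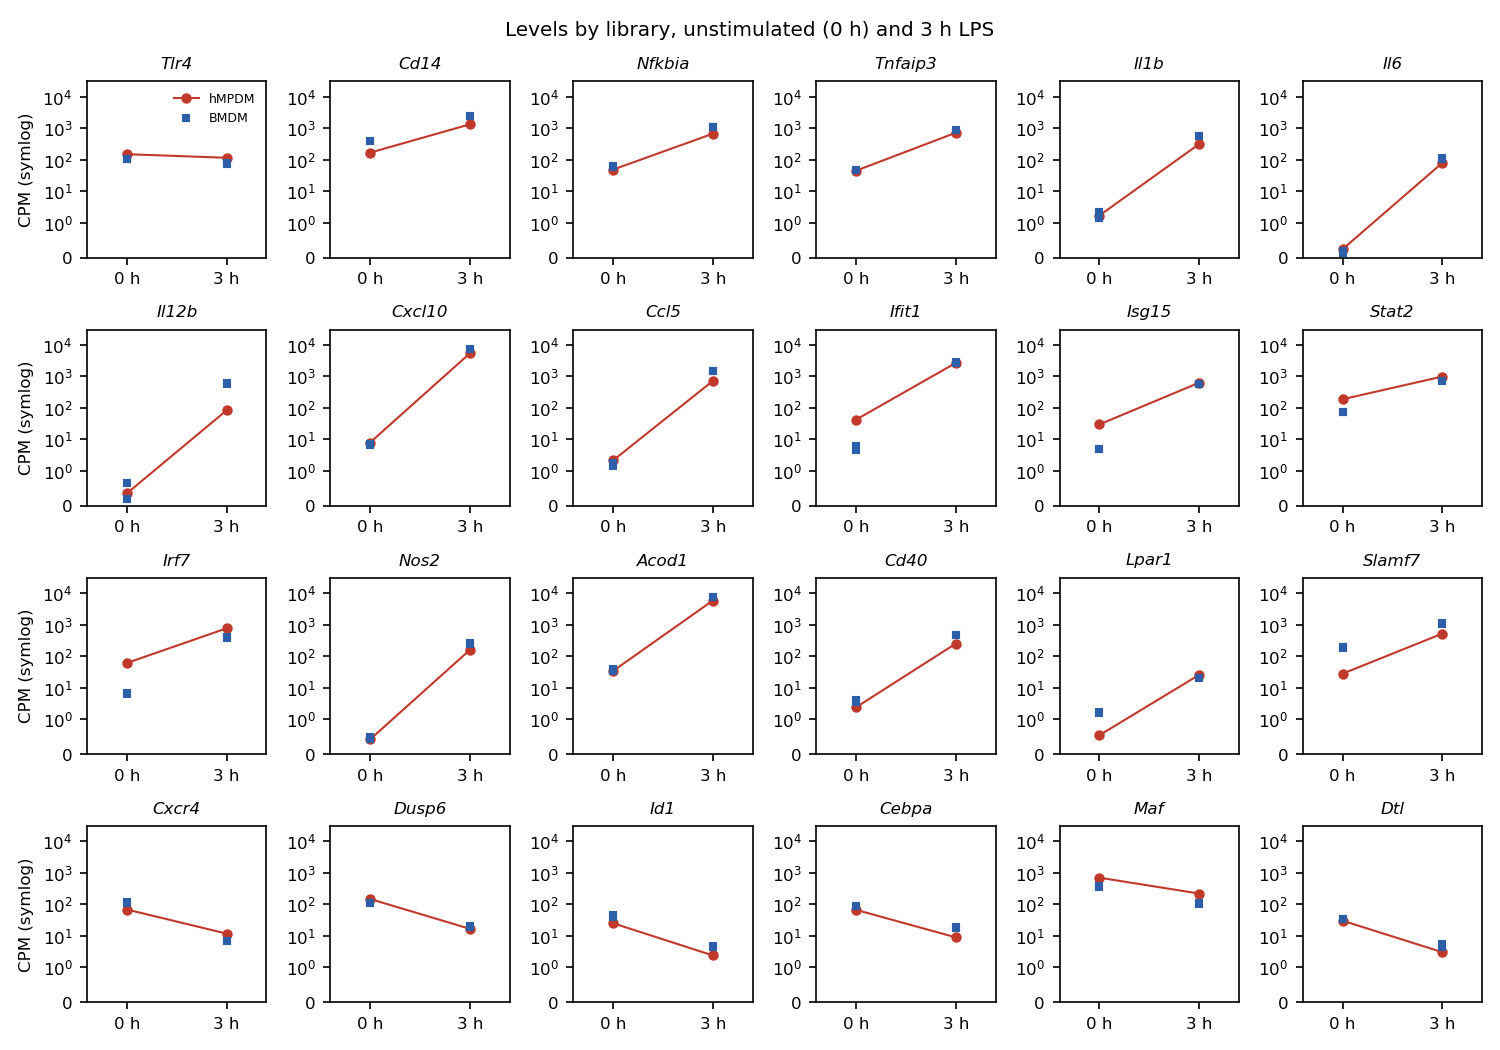
Level in CPM (symmetric log axis, linear below 1) of 24 genes at 0 h and at 3 h of LPS. Red circles joined by a line are the single hMPDM libraries and blue squares the 2 BMDM libraries of each state. Ifit1 and Irf7 start higher in hMPDM than in BMDM, and Il12b ends lower, at 83.3 CPM.

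Among metabolic genes, a few enzymes stood far above the others of their lists. Nos2, the inducible nitric oxide synthase gene, had 7 counts at rest and 714 after LPS, a ratio of 370 (179 to 924). The arginine transporter gene Slc7a2 (1.20 to 13.5 CPM) and Ass1, which recycles citrulline to arginine (1.92 to 10.7 CPM), were also 4-fold higher, and Gch1, which makes the synthase's cofactor, just missed it (37.5 to 150 CPM, 1.99). Acod1 (ENSMUSG00000022126.6, chromosome 14, 103046977 to 103056573, mm10) had a ratio of 170 (156 to 185). The other 22 genes of the TCA cycle list all stayed under 2-fold, with log2 ratios from -0.73 for Idh1 to 0.62 for Dld. Acod1 thus stood alone in its list, and the succinate dehydrogenase genes that itaconate inhibits as an enzyme were level in mRNA (Sdha 340 and 333 CPM, Sdhb 142 and 141).

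Of 24 glycolysis and HIF-1 target genes, 1 was 4-fold higher, Slc2a6, a lysosomal sugar transporter gene (66.2 to 1010 CPM, 3.93). The glucose transporter gene Slc2a1 (39.7 to 102 CPM), the lactate exporter gene Slc16a3 (34.8 to 84.0) and P4ha1 (99.7 to 222) were at least 2-fold higher. The list median was 0.44, which is close to the median shift of 0.38 between the scalings. Gapdh was counted at only 9.67 and 8.29 CPM, and genes with many near-identical copies such as this one are uncertain here.

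Of 14 prostaglandin and leukotriene genes with at least 5 CPM, 3 were 4-fold higher and 0 lower. They were Ptgs2, the inducible cyclooxygenase (1.38 to 46.0 CPM), Ptges, the synthase of prostaglandin E2 (0.961 to 13.7 CPM), and Ptger4, a receptor of that prostaglandin (2.52 to 13.1 CPM). The constitutive cyclooxygenase gene Ptgs1 stood at 150 and 71.1 CPM (-1.07), and the synthase genes of other prostanoids, Tbxas1 (151 to 100 CPM) and Hpgds (385 to 260 CPM), had ratios under 1.

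Of 28 oxidative defence and iron genes, 5 were 4-fold higher and 0 lower. Cybb, the catalytic subunit of the phagocyte NADPH oxidase, went from 209 to 1762 CPM (3.08) and Nox1 from 1.80 to 39.7 CPM (4.33). Sod2, the mitochondrial superoxide dismutase gene, went from 67.0 to 592 CPM (3.14), the cystine transporter gene Slc7a11 from 31.6 to 157 CPM, and Lcn2, which binds bacterial iron carriers, from 2.46 to 22.5 CPM. Slc40a1, the iron exporter ferroportin, stood at 329 and 140 CPM (-1.23). Hmox1, which frees iron from haem, was level at 537 and 496 CPM.

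Lipid synthesis genes differed little. Of 28 cholesterol and fatty acid synthesis genes 1 was 4-fold higher, Ch25h, which makes 25-hydroxycholesterol (1.32 to 31.8 CPM, 4.41), and 0 were lower. Scd2, a desaturase gene, had the largest loss in CPM of all genes, from 3044 to 1560 CPM (-0.96). The sterol enzyme gene Hmgcs1 (628 to 765 CPM) had a ratio slightly above 1, and scaling by total counts would turn it below 1. None of 21 LXR target and lipid handling genes passed 4-fold in either direction, and Fabp4 (16.5 to 50.2 CPM), Lpl (144 to 376) and Abcg1 (87.3 to 205) were at least 2-fold higher.

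Antigen presentation split by class. Of 20 MHC class I and immunoproteasome genes, 8 were 4-fold and 17 at least 2-fold higher, with a median of 1.74. Nlrc5, the class I transactivator, went from 49.9 to 304 CPM, Tapbp, a peptide loading chaperone gene, from 272 to 1088, and H2-K1, a classical class I gene, from 1068 to 2942. The class II transactivator gene Ciita went from 3.96 to 11.8 CPM (1.53), while its targets H2-Ab1 (21.4 to 40.3 CPM), Cd74 (83.9 to 156) and H2-Eb1 (26.7 to 40.8) stayed under 2-fold. Surface regulators of T cells were among the higher genes. Cd274, the checkpoint ligand PD-L1 (ENSMUSG00000016496.7, chromosome 19, 29367455 to 29388095, mm10), went from 71.9 to 1855 CPM, a ratio of 25.8 (24.3 to 27.4). Cd69, an early activation marker, went from 4.93 to 1077 CPM (7.72), Cd83 from 95.8 to 612 and Icosl from 29.8 to 338 CPM. Cd86 (67.5 to 97.7 CPM) and Cd80 (17.2 to 26.2 CPM), the ligands of CD28, were under 2-fold.

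Of 28 phagocytic and scavenger receptors with at least 5 CPM, 4 were 4-fold higher and 0 lower. They were Clec4e (Mincle, 4.30), Marco (0.721 to 36.4 CPM), Clec4a1 (18.7 to 102) and the high-affinity IgG receptor gene Fcgr1 (56.4 to 251). The mannose receptor gene Mrc1 (4154 to 3419 CPM), Stab1 (2109 to 1859) and Mertk, which takes up dying cells (154 to 89.8), had ratios under 1. Of 20 integrin and adhesion genes, 3 were higher, Icam1 (70.2 to 2269 CPM, 5.01), Vcam1 (0.180 to 12.9) and Itgal (39.7 to 183). Icam1 encodes a ligand of the integrin LFA-1, and Itgal its alpha chain. Itgb3 stood at 166 and 80.5 CPM.

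Cell death and inflammasome genes were higher at several sensors and survival factors. Of 29 with at least 5 CPM, 7 were 4-fold higher and 0 lower. Nlrp3, the inflammasome sensor, went from 72.1 to 578 CPM (3.00), Casp4, the mouse sensor of cytosolic LPS known as caspase 11, from 36.9 to 291 CPM (2.97), and Casp1 from 79.3 to 339 CPM (2.09). The apoptosis inhibitor genes Cflar (141 to 947 CPM) and Bcl2a1b (5.65 to 42.3) and the kinase gene Ripk2 (21.6 to 323) were higher as well. The Bcl2a1 genes are near-identical copies, so their single values are uncertain. The adaptor gene Pycard (79.5 to 63.9 CPM) and Ripk3 (38.8 to 32.5) had ratios under 1.

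Of 17 complement and coagulation genes with at least 5 CPM, 4 were 4-fold higher and 2 lower. C3, the central complement component (ENSMUSG00000024164.11, chromosome 17, 57203970 to 57228136, mm10), went from 34.7 to 1420 CPM, a ratio of 40.9 (37.6 to 44.6). The fibrinolysis genes were opposed. The plasminogen activator inhibitor gene Serpinb2 (0.0601 to 6.32 CPM, from a single count) was higher, while the activator gene Plau stood at 547 and 97.3 CPM (-2.49). Thbd, the anticoagulant thrombomodulin, had 233 and 7 counts, a ratio of 0.109 (0.0434 to 0.228). The coagulation factor gene F10 went from 3.12 to 21.8 CPM.

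Of 13 acute phase and matrix-degrading genes with at least 5 CPM, 5 were 4-fold higher and 0 lower. Saa3, an acute phase apolipoprotein gene, went from 1.56 to 349 CPM (7.64), and the collagenase gene Mmp13 from 42.8 to 704 CPM (4.03). Mmp14, a membrane-bound protease gene, went from 0.841 to 36.2 CPM (5.15), and the haptoglobin gene Hp from 1.14 to 13.3 CPM. Adamts4, an aggrecan-cleaving protease gene, had 0 counts at rest and 51 after LPS, at least 61.7-fold higher against 3 counts in the resting library. Adamts4 was 1 of 4 higher genes without a read at rest, beside Dll1 (lower limit 39.5), Zfp811 (39.5) and Lhx2 (24.8). The elastase gene Mmp12 (197 to 521 CPM) and Spp1, osteopontin (4097 to 6224 CPM), were under 4-fold.

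Genes of DNA replication had the lowest list median. Of 40 G1/S and replication genes, all with at least 5 CPM, 0 were 4-fold higher, 4 were 4-fold lower and 19 at least 2-fold lower (median -0.98). At 2-fold the share of all genes was 7.18%. Ung, which removes uracil from DNA, had 161 and 4 counts, a ratio of 0.0902 (0.0243 to 0.235), and Cdc6, which licenses origins, stood at 22.8 and 3.49 CPM (-2.65). Dscc1 (7.15 to 1.09 CPM), a cohesion factor gene, and E2f7 (17.4 to 4.14 CPM), a repressor of the E2F family, were the other 2. The related E2f2 (44.7 to 11.6 CPM, -1.93), E2f8 (51.5 to 18.8 CPM, -1.45) and E2f1 (54.7 to 39.3 CPM, -0.48) did not pass 4-fold. Dtl, which targets replication factors for degradation, was outside the list and stood at 30.3 and 3.05 CPM, a ratio of 0.101 (0.0546 to 0.170).

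The lower levels did not reach all steps of replication alike. All of Mcm2 to Mcm7, the helicase genes, had ratios under 1, from -0.61 for Mcm6 to -1.24 for Mcm2, while Pcna (162 to 174 CPM), the sliding clamp gene, and Mcm10 (40.8 to 50.4 CPM) were level or slightly higher. Of 35 mitosis genes 0 passed 4-fold, 1 was at least 2-fold lower, and the median was -0.63. Mki67 stood at 538 and 403 CPM and Cdc25b at 86.1 and 38.8 CPM. Cdkn1a, the cell cycle inhibitor p21, went from 280 to 1476 CPM (2.39), and the cyclin gene Ccnd1, which drives entry into the cycle, stood at 540 and 227 CPM (-1.25). In bulk RNA, fewer cycling cells and less RNA per cell cannot be told apart. With total-count scaling these ratios would be lower by about 0.38.

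Among long noncoding RNAs, the hosts of microRNAs differed. Mir155hg (ENSMUSG00000097418.3, chromosome 16, 84703167 to 84715245, mm10) had 2 counts at rest and 231 after LPS, a ratio of 419 (115 to 3483). Mir17hg, host of the miR-17-92 cluster, had 136 and 8 counts, a ratio of 0.214 (0.0904 to 0.433). Mir22hg went from 23.9 to 52.8 CPM (1.14). The polyadenylated host transcripts were measured and not the mature microRNAs, which are shown from RefSeq (GRCm38.p6) because the hosts went in opposite directions, with the seed (bases 2 to 8) in capitals.
mmu-miR-155-5p (chr16:84714143-84714165, plus strand): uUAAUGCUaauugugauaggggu
mmu-miR-17-5p (chr14:115043684-115043706, plus strand): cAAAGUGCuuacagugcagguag
mmu-miR-20a-5p (chr14:115044183-115044205, plus strand): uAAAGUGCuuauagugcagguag
mmu-miR-22-3p (chr11:75463772-75463793, plus strand): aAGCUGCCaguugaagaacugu
The pair from Mir17hg shares the seed AAAGUGC. The nuclear RNAs Neat1 (463 to 419 CPM) and Malat1 (663 to 591 CPM) were level. Among 10 clock genes with at least 5 CPM, 1 was 4-fold lower, the output factor gene Dbp (16.3 to 3.71 CPM), and Per1 (23.4 to 10.9 CPM) was at least 2-fold lower.

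The remaining genes at the lower end of the ratios were scattered in function. Fam78a stood at 39.2 and 3.49 CPM (-3.42), Fam234b at 51.4 and 6.32 CPM (-2.99), C130050O18Rik at 16.3 and 0.872 CPM from 271 and 4 counts, and Runx3, a transcription factor gene, at 13.2 and 1.53 CPM (-2.96). Fbxo48, Cbx8 and Zfp667 had 1 or 2 counts after LPS. The largest losses in CPM, Plau apart, were of genes under 4-fold. After Scd2 they were the endocytic adaptor gene Dab2 (1658 to 905 CPM), Mrc1, Maf, Plau, the selenium carrier gene Selenop (2966 to 2545 CPM), Pdxk (628 to 211 CPM), Thbs1 (807 to 411 CPM), Gas6 (1490 to 1103 CPM) and the phosphatase gene Inpp5d (504 to 133 CPM, -1.92).

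The response was then set against that of BMDM by a test of the difference of the 2 responses (edgeR quasi-likelihood, Benjamini-Hochberg adjusted over 12461 genes). The labels do not say that the BMDM replicates were separate cultures, so the p-values reflect no more than how these libraries vary, and that variation may be technical. It came from the BMDM pairs, and the single hMPDM libraries were assumed to vary as these do. In BMDM, 438 of the 439 higher genes had a log2 ratio above 0, and all 113 lower genes had one below 0. The share of all genes on each side of 0 in BMDM was not counted. These signs therefore do not set the called genes apart. The BMDM share of the hMPDM LPS library was not taken out here. By the 4-fold rule, 375 of the 439 were also higher in BMDM, and only 52 of the 113 were also lower. Over all genes, that rule called 4.79% higher and 0.965% lower in BMDM. The difference is signed, as the hMPDM log2 ratio minus that of BMDM. It passed above 0 for 494 genes (3.96%) and below 0 for 485 (3.89%). Of the 439 higher genes 52 passed above and 115 below 0, and of the 113 lower genes 3 above and 11 below, the last being lower by more than in BMDM. A count of genes with an adjusted p of 0.05 or below depended on the tool as well, since DESeq2 called 120 and 144 and gave no adjusted p for 5798 genes.

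Among genes past 4-fold in hMPDM, the highest differences included receptors and a transporter. Slc13a3, a carrier of dicarboxylates (ENSMUSG00000018459.11, chromosome 2, 165405028 to 165473230, mm10), went from 0.420 to 23.3 CPM in hMPDM, and in BMDM from 1.25 and 1.45 to 3.78 and 4.50 CPM. Its difference was 4.12 on the log2 scale (SE 0.499, adjusted p = 6.00e-07, edgeR). Slamf7, a receptor of the SLAM family, went from 27.6 to 514 CPM in hMPDM and from 189 and 181 to 1082 and 1065 CPM in BMDM. Its difference was 1.68 (SE 0.0876, adjusted p = 1.02e-14, edgeR), and the level in hMPDM stayed below that of BMDM in both states. Lpar1 reached a like level in both cell types after LPS, 25.3 CPM in hMPDM and 19.5 and 19.7 in BMDM, from a lower start in hMPDM (difference 1.96, adjusted p = 0.00401, edgeR).

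The receptor gene Il12rb1 went from 1.98 to 9.38 CPM in hMPDM and from 2.87 and 3.00 to 4.23 and 3.79 CPM in BMDM (difference 1.81, adjusted p = 0.00204, edgeR). Ptger4 reached 13.1 CPM in hMPDM and 8.16 and 9.09 CPM in BMDM (1.41, adjusted p = 0.00401, edgeR), and Rtl5, a gene derived from a retrotransposon, differed by 1.79 (adjusted p = 7.90e-06, edgeR). Cxcr4 was lower after LPS in both cell types, from 68.5 to 11.8 CPM in hMPDM and from 111 and 119 to 6.80 and 7.03 CPM in BMDM (1.51, adjusted p = 0.000125, edgeR). Of the 10 highest differences, 3 did not keep their call with the BMDM share taken out. There, Plpp3 (difference 3.62) turned to a log2 ratio of -0.40 in hMPDM, and the calls for Tceal8 (3.62, adjusted p = 0.0656 after) and Marco (1.76, adjusted p = 0.477 after) ended.

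**Figure D4:**
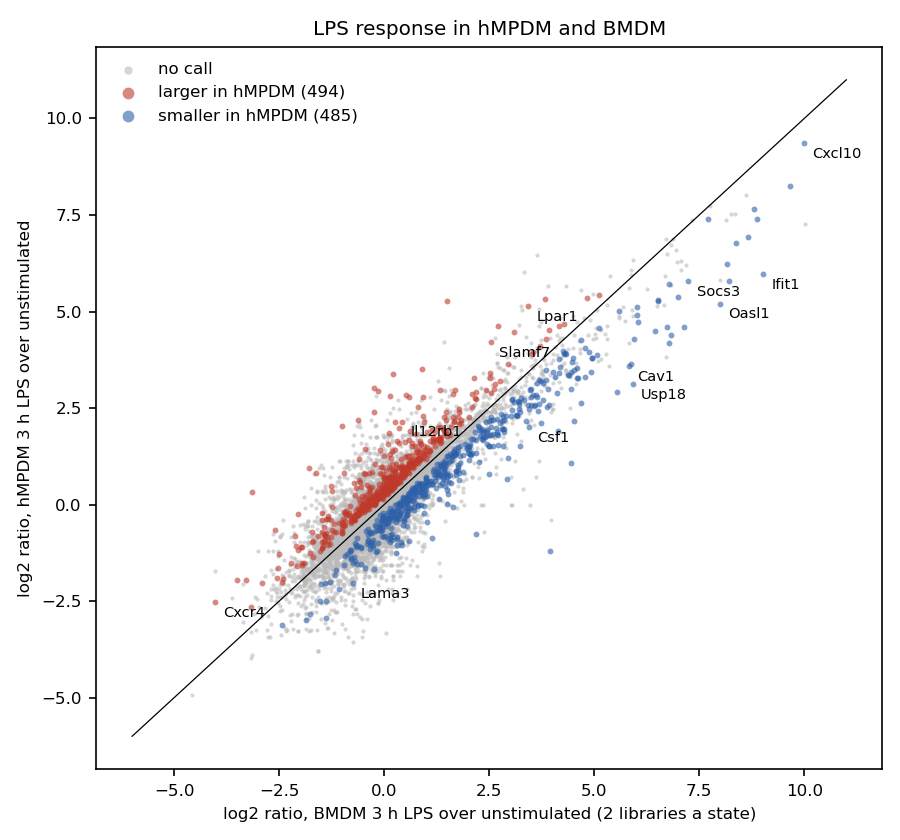
Log2 ratio of LPS over unstimulated in BMDM (x axis, 2 libraries a state) and hMPDM (y axis, 1 library a state) for 12461 genes, with the line of equal response. Red points are the 494 genes with a higher and blue points the 485 with a lower ratio in hMPDM by the edgeR test. Blue points lie below the line at high BMDM ratios, where Ifit1, Oasl1 and Usp18 are.

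Among the genes past 4-fold in hMPDM, the lowest differences were mostly those of interferon-stimulated genes. Of the 10 lowest differences 9 were members of the antiviral, Ifi200 or GTPase lists, from -6.20 for Ifi208 and -3.06 for Ifit1 to -2.44 for Ifit2. Those lists also made up part of the genes ranked, with 27, 16 and 13 members among the 439 higher ones. For Usp18, which shuts off interferon signalling, the levels were 59.1 and 516 CPM in hMPDM, against 4.84 and 4.99 CPM without and 315 and 302 CPM with LPS in BMDM (-2.84, SE 0.115, adjusted p = 4.78e-17, edgeR). Across the 43 antiviral genes, 41 stood higher in hMPDM than the BMDM mean at rest and 34 after LPS. No like count over all genes stands beside these, so they do not set the antiviral genes apart from others. Of the list, 30 passed below 0 and 1 above. The counts were 9 below and 0 above of 15 for the GBP and IRG GTPases, 12 and 0 of 20 for the Ifi200 and Schlafen genes, and 11 and 0 of 20 for the TRIM and PARP genes.

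Some other lists were uneven as well. Of 16 NF-kB subunit and IkB genes 7 passed below and 1 above 0. The counts were 5 and 0 of 21 integrin and adhesion genes, and 4 and 0 of 20 MHC class I and immunoproteasome genes. Of 13 kept CC chemokine genes 3 passed below and 1, Ccl4, above 0, of 11 CXC genes 1 (Cxcl10) and 1 (Cxcl16), and of 27 feedback regulators 4 and 5. Of 29 myeloid lineage factors 2 passed below and 9 above 0, of 28 cholesterol and fatty acid genes 1 and 8, and of 40 replication genes 1 and 1. Cav1, which encodes a coat protein of caveolae, reached 8.50 CPM in hMPDM and 29.3 and 27.5 CPM in BMDM (-2.46, adjusted p = 0.0221, edgeR).

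Genes past 4-fold in hMPDM were also named by the smallest BMDM ratio. Among the higher ones, beside those above, were Frmd4a (57.7 to 232 CPM, difference 0.74, adjusted p = 9.93e-07, edgeR) and Sertad3 (8.35 to 34.0 CPM, difference 0.69, adjusted p = 0.0343, edgeR). The differences of Akap6 (adjusted p = 0.0835, edgeR), Nr1h3 (0.118) and Agpat4 (0.0615) did not pass. Under alternatives Agpat4 passed with RLE factors (adjusted p = 0.0451), with the replicate block (0.0305) and without BMDM unstimulated replicate 2 (0.0224) or LPS replicate 2 (0.0141). Nr1h3 passed without BMDM unstimulated replicate 1 (adjusted p = 0.0293) or LPS replicate 2 (0.0320). The call for Sertad3 ended without BMDM unstimulated replicate 1 (adjusted p = 0.0660) and without BMDM LPS replicate 2 (adjusted p = 0.141). Among the lower ones, Ssh2, a phosphatase that acts on cofilin, went from 122 to 26.8 CPM in hMPDM and from 82.3 and 89.1 to 42.4 and 38.1 CPM in BMDM (-1.08, adjusted p = 7.19e-06, edgeR). Lama3, a laminin chain gene, differed by -1.22 (adjusted p = 0.00749) and Fam198b by -0.71 (adjusted p = 0.000793, edgeR). The call for Fam198b ended with DESeq2 (adjusted p = 0.176).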

How the data were processed

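The authors deposited raw read counts per gene for 43346 genes, not normalized. Of 10 value columns 8 were used. The other 2 carry hMPDM headers for the same states, match no sample of the series and were not used. Whether they are replicates of the hMPDM libraries is not given. Per the labels' protocols, polyadenylated RNA was extracted with TRIzol and a Direct-zol kit and made into libraries with a stranded KAPA kit. Per the submitters' processing notes, the tools were cutadapt, STAR, SAMtools, bedtools and featureCounts, with the mm10 build. The sources used here give no settings or versions.

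Samples were grouped by their labels, which name no batch. Counts were scaled by TMM in edgeR 4.0.16 (R 4.3.3), and filterByExpr kept 12461 genes. The hMPDM ratio used a prior count of 2 and has no test. The difference from BMDM was tested by edgeR's quasi-likelihood test over all 8 libraries in 6 groups, which left 2 residual degrees of freedom, with Benjamini-Hochberg adjustment and a threshold of 0.05. Steps were tested on simulated data. Intervals are exact at 95%, and like the limit for a count of 0 (3 counts) cover counting error only, since reads carry no molecular identifiers.

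The named genes are the members of the gene lists, the 15 highest and 15 lowest ratios, the 10 largest gains and losses in CPM, and the 10 highest and lowest differences from BMDM among genes past 4-fold in hMPDM. They also include the 10 genes past 4-fold in each direction with the smallest BMDM ratio, and runs of at least 3 neighbours. The comparison, the gene lists and the rules were chosen with earlier results of these data known. The share of the BMDM level was estimated from 16 genes at or above 5 CPM in BMDM and at most 5% of that in unstimulated hMPDM. Alternatives were RLE and library-size scaling, other minimum levels, prior counts and folds, DESeq2 1.42.0, a replicate block, leaving out each BMDM library or the RAW libraries, and the share taken out. Some genes are not reported here.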

Additional observations from a re-analysis of the deposited data

Results flagged for a closer look

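The responses of hMPDM and BMDM differed by the edgeR test of the difference itself (Benjamini-Hochberg adjusted, hMPDM log2 ratio minus that of BMDM), above 0 for 494 genes and below 0 for 485. Of the genes named for the report, those above 0 were Slc13a3 (4.12), Plpp3 (3.62), Tceal8 (3.62), Lpar1 (1.96), Il12rb1 (1.81), Rtl5 (1.79), Marco (1.76), Slamf7 (1.68), Cxcr4 (1.51), Ptger4 (1.41), Frmd4a (0.74) and Sertad3 (0.69). Those below 0 were Ifi208 (-6.20), Ifit1 (-3.06), Oasl1 (-2.86), Usp18 (-2.84), Ifit3 (-2.63), Tgtp2 (-2.55), Ifit3b (-2.49), Isg15 (-2.49), Cav1 (-2.46), Ifit2 (-2.44), Lama3 (-1.22), Ssh2 (-1.08) and Fam198b (-0.71). Ifi208 had 0 counts in unstimulated BMDM, so the size of its difference depends on the prior count.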

How the results depend on the processing

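With 1 hMPDM library a side, the counts of genes past 4-fold describe these libraries. The lower count was the less stable. It was 224 with library-size scaling (319 higher), 202 with a minimum of 1 CPM (565), 56 with 20 CPM (346), 262 with no minimum (608) and 30 where the whole counting interval had to pass 4-fold (374). A fold of 2 gave 995 higher and 699 lower genes. RLE factors (443 and 112), prior counts of 0.5 (444 and 119) and 5 (431 and 97) and the BMDM share taken out (431 and 124) stayed within 1.5 times. For the difference from BMDM, DESeq2 called 120 above and 144 below 0, where the cause was not tested and 5798 genes had no adjusted p. The edgeR counts were 532 and 496 with RLE factors, 475 and 508 without the filter, 452 and 486 without the RAW libraries and 506 and 581 with the share taken out. Leaving out 1 BMDM library gave 430 to 540 above and 460 to 552 below 0, the lone library being assumed to vary like the other groups. With the share taken out, Plpp3 turned to a ratio of -0.40 and a difference of -5.37. Few counts limit the lower genes, of which 35 had fewer than 10 counts after LPS.

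With the BMDM replicate number as a block, 455 genes passed above and 498 below 0, on 1 residual degree of freedom. The labels do not say whether the replicate numbers mark a pairing. Over the kept genes, the deviations of same-numbered BMDM libraries correlated at -0.03 between the states. With only 2 pairs this cannot settle whether they were paired.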
